A study of Mus musculus with 8 samples.

Results

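The E2F factors, their DP partners and the pocket proteins were read in the striatum of male mice with 1 disrupted copy of Brd2. The set was every non-control spot whose gene name on the array was E2f3, E2f4, E2f5, E2f6, E2f7, Rb1, Rbl1, Rbl2, Tfdp1 or Tfdp2. These 10 genes, of 24104 gene names on the array, were read by 15 probes of 60 bases on 24 spots, of 39429 probes on 43020 spots. Each probe was analysed on its own.

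The study had 2 groups of adult male C57Bl/6j mice: 4 Brd2+/- mice, heterozygous for a gene trap in Brd2, and 4 wildtype mice. Both were offspring of Brd2+/- parents backcrossed to C57Bl/6J, and a PCR over the junction of the trap gave their genotype. RNA of each mouse was labelled with Cy3 or Cy5, and 2 mice of the same genotype shared each of 4 two-colour arrays, all on 1 slide. A difference between genotypes is therefore always also a difference between arrays. All member probes but that of Rb1 have 1 spot per array, so for these both mice of an array were read from the same spot.

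E2F proteins bind DNA and switch genes of DNA replication and mitosis on or off. The classical ones bind as dimers with a DP protein, and pocket proteins (Rb1, Rbl1, also called p107, and Rbl2, also called p130) hold them in a repressing state until cyclin-dependent kinases release them. In non-dividing cells such as neurons, Rbl2 with E2f4 or E2f5 is the best known repressing combination. Brd2 is a bromodomain protein that binds acetylated histones and is known from cultured cells to associate with E2F proteins.

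The promoters are shown because several of these genes are themselves known E2F targets. RefSeq windows from 250 bases before to 50 bases after each start (GRCm38.p6) were matched for 7 of the 10 genes, in 10 windows. They were searched on both strands for TTTCGCGC, TTTCCCGC, TTTGGCGC and TTTGCCGC. At least 1 match stood in 4 of the 7 genes, against 2.6% of 27025 genes with a window, and in 5 of the 10 member windows, against 2.26% of 32851 windows. A match is a description of the letters only. The stretches below run 5′ to 3′ on the strand of the gene, with the matching letters, or their complement, in capitals. They lie at chr13:29986056-29986085 (E2f3, minus strand), chr10:110745230-110745259 (E2f7, plus), chr2:157204534-157204563 (Rbl1, minus) and chr8:13338697-13338726 (Tfdp1, plus). The match began 11 bases before the start of E2f3, 198 before that of E2f7 and 18 before that of Rbl1. For Tfdp1 the same match began 43 and 96 bases before its 2 annotated starts.
E2f3 promoter: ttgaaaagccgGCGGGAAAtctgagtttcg
E2f7 promoter: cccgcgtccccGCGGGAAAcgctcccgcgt
Rbl1 promoter: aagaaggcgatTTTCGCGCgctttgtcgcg
Tfdp1 promoter: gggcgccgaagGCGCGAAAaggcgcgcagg

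Probe coordinates below are those of the array file, on mm9. The E2f7 probe that carries the largest difference among the members is given here with runs of at least 4 identical bases in capitals. It lies at chr10:110219255-110219314 on the plus strand, from base 2338 of the transcript. The first E2f3 probe is shown beside it because its 60 bases span 3387 bases of the genome (chr13:30005369-30008755, minus strand), so that it crosses an intron. The longest stretch the E2f7 probe shared with any other probe on the array was 15 bases.
E2f7 probe A_55_P2020894: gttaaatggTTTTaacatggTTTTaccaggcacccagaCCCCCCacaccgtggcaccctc
E2f3 probe A_51_P487718: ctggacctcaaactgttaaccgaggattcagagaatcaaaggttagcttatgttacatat

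The median spot was between 3.72 and 10.5 times as bright as its local background, 41.6% to 63.1% of probes were well above background in a mouse, and no spot was saturated. Every Cy5 channel was dimmer relative to background than every Cy3 channel, at most 5.24 against at least 6.46. A free-text label of every sample names heart left atrium, while the tissue label and the dissection protocol name striatum. All 6 tested striatal projection neuron markers of 8 listed were well above background in all mice, at a mean log2 signal of 13.26 to 13.83 in heterozygous and 12.21 to 13.51 in wildtype mice. Of 6 atrial heart markers, 3 were tested and 1 was well above background in all mice. Their mean log2 signal was 7.8 to 8.04 in heterozygous and 8.14 to 9 in wildtype mice. The highest single value was 11.95, for Myl4 in wildtype replicate 1. Cortical projection neuron markers (5 of 6 tested) had a mean log2 signal of 7.36 to 8.37 in heterozygous and 7.84 to 10.1 in wildtype mice. Ependyma and choroid plexus markers differed most between arrays, from 1.71 below to 1.77 above their mean over the 4 arrays. Brd2 itself averaged a log2 signal of 11.74 ± 0.07 in heterozygous and 11.46 ± 0.64 in wildtype mice on its brighter probe (SD, n = 4 each), and 8.01 ± 0.18 and 7.13 ± 0.26 on the other. The differences were 0.28 and 0.88, both toward the mice with a disrupted copy, and on the second all heterozygous mice (7.75 to 8.16) lay above all wildtype mice (6.90 to 7.39). Limma gave adjusted p = 0.931 and 0.5. Where these probes lie relative to the trap is not stated by any source used here, so the genotypes are used as labelled.

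No E2F, DP or pocket protein probe changed with genotype at an adjusted p under 0.05. Signals are log2 values throughout. The test was limma with a term for dye and a random effect of array, adjusted by Benjamini-Hochberg over 18399 probes. Of the 15 member probes, 12 were tested, at least 1 for each gene, and 0 of these passed, as did 0% of all probes tested. The lowest adjusted p was 0.603 among the members and 0.437 among all probes. At an unadjusted p under 0.05, 2 of 12 member probes stood out, beside 8.05% of all probes: E2f7 was the higher one (3.83% of all probes) and Rbl2 the lower one (4.22%). A difference below 0 was found for 8 of 12, against 52.4% of all probes, and the median difference was −0.19 for the members against −0.02 for all probes. At least 1.5-fold apart were 4 of 12, beside 16.2% of all probes. The 2 mice of an array correlated at 0.81 in this fit once genotype and dye were taken out, so 8 mice carry little more information on genotype than 4 arrays.

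**Figure D1:**
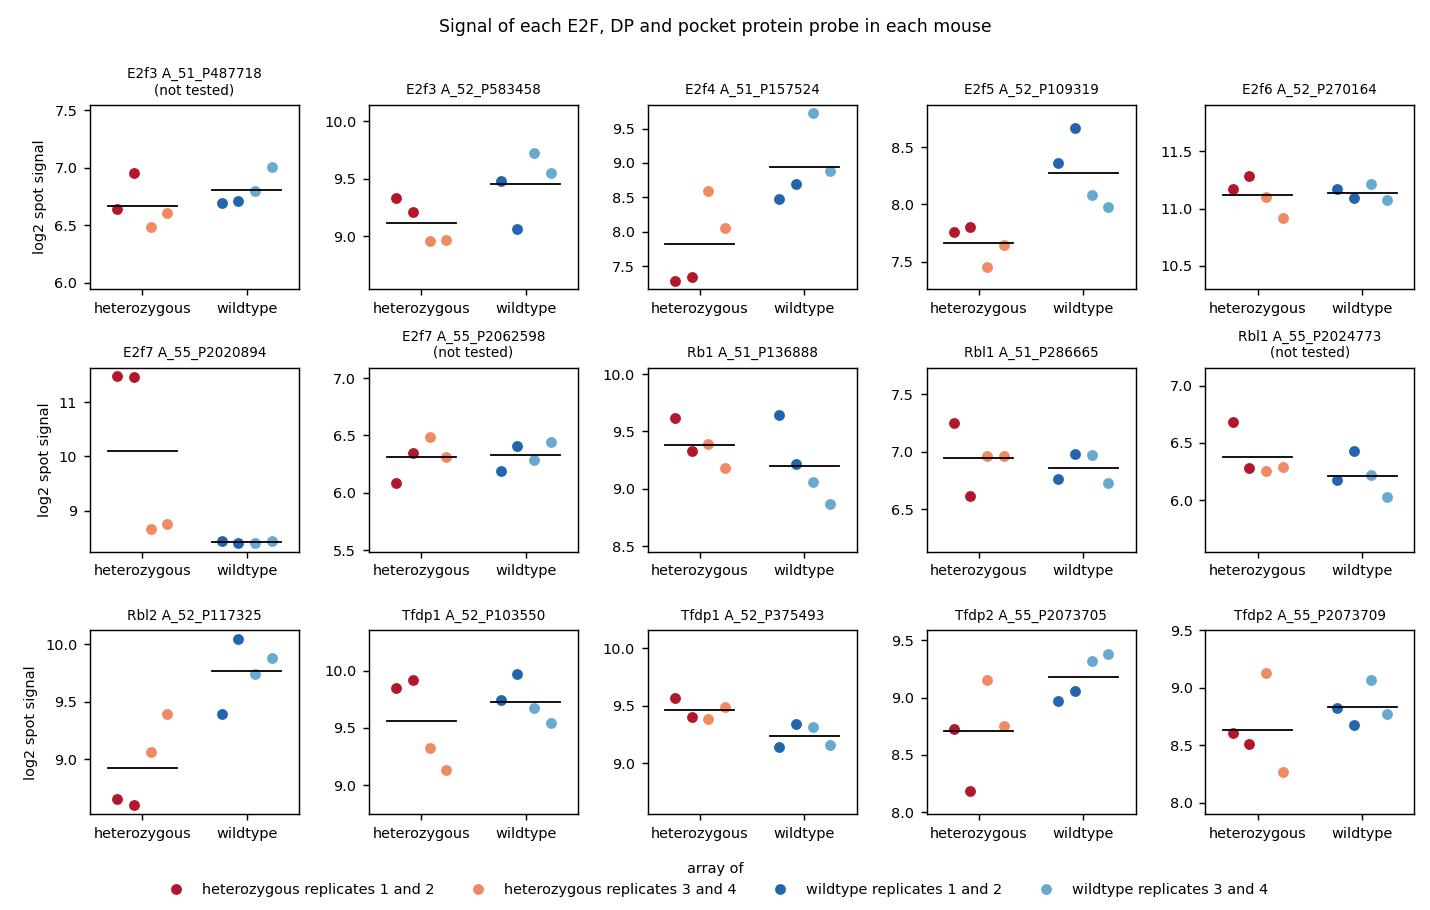
Log2 spot signal (y axis) of each of the 15 probes in the 4 heterozygous (left) and 4 wildtype (right) mice, coloured by array, with the group mean as a line and a scale of its own for each probe. The 2 mice of an array tend to lie together, most clearly for E2f7, where the 2 mice of 1 heterozygous array stand at 11.48 and 11.46 and the other 6 mice lie between 8.40 and 8.76.

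E2f3 is an activating E2F. Its second probe (chr13:29998480-29998539, minus strand) read 9.33, 9.21, 8.96 and 8.97 in heterozygous mice, against 9.48, 9.06, 9.72 and 9.55 in wildtype mice. The groups overlapped, and the difference was −0.34 (SE 0.28, adjusted p = 0.868, limma). The intron-crossing E2f3 probe was well above background in 1 heterozygous and 1 wildtype mouse, between 6.48 and 6.95 against between 6.69 and 7.01, and was not tested.

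E2f4 and E2f5 are the repressing E2Fs that pair with Rbl1 and Rbl2. The E2f4 probe (chr8:107829156-107829215, plus strand) read 7.29, 7.34, 8.59 and 8.06 in heterozygous mice, against 8.48, 8.70, 9.72 and 8.89 in wildtype mice. The 2 lowest values were those of heterozygous replicates 1 and 2, on 1 array, and heterozygous replicate 3 lay above wildtype replicate 1. The difference was −1.13 (SE 0.56, adjusted p = 0.686, limma), larger in size than that of 97.9% of all probes. With 1 array left out at a time it was −0.63 and −1.63 (heterozygous replicates 1 and 2, then 3 and 4) and −1.49 and −0.77 (wildtype replicates 1 and 2, then 3 and 4). At this spot the local background was 1476 and 753 for wildtype replicates 3 and 4, above the mean spot intensity of 733.9 and 415.6, while it was between 17.5 and 35 in the other 6 mice. The scanner software marked both of these background readings as outliers, so the channel's median background took their place. Without any background correction the difference was −1.19, and the deposited value table, which subtracts the background as read, did not hold an E2f4 value for every mouse.

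The E2f5 probe (chr3:14605676-14605735, plus strand) read 7.76, 7.80, 7.46 and 7.65 in heterozygous mice, against 8.36, 8.67, 8.08 and 7.98 in wildtype mice. All 4 heterozygous mice lay below all 4 wildtype mice, at a difference of −0.61 (SE 0.29, adjusted p = 0.662, limma). The groups did not overlap for 3 of the 12 member probes, beside 17% of all probes: E2f7 and 1 Tfdp1 probe were higher (7.86% of all probes) and E2f5 was lower (9.1%). For each of these the two-sided exact permutation p was 0.0286 over mice, the smallest 4 against 4 can give. Over the 2 array means of each genotype it was 0.333, the smallest 2 against 2 can give. Groups without overlap always give these values, so the p adds nothing to the lack of overlap. Permuting mice also ignores that 2 mice share each array.

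E2f6 represses as part of a Polycomb-like complex without binding pocket proteins. Its probe (chr12:16833463-16833522, plus strand) was the most even of the tested probes, with 11.17, 11.28, 11.10 and 10.92 in heterozygous mice, against 11.17, 11.09, 11.21 and 11.07 in wildtype mice. The groups overlapped over a whole range of 0.36, and the difference was −0.02 with a 95% interval of −0.57 to 0.53 (limma). A difference of any size within that interval is compatible with these values.

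E2f7 is an atypical E2F that represses without a DP partner. The probe shown above read 11.48, 11.46, 8.67 and 8.76 in heterozygous mice, against 8.44, 8.40, 8.40 and 8.44 in wildtype mice. The groups did not overlap, but the 2 heterozygous mice of 1 array stood far above all others, while those of the other array were close to wildtype. The difference was 1.68 (SE 0.68, 95% interval 0.13 to 3.22, unadjusted p = 0.0364, adjusted p = 0.603, limma), or 3.19-fold on the linear scale. Without the array of heterozygous replicates 1 and 2 it was 0.30 (adjusted p = 0.807, limma). Without the array of heterozygous replicates 3 and 4 it was 3.05 (adjusted p = 0.0448, limma). Each of these fits leaves 1 heterozygous array, whose 2 mice were read from the same E2f7 spot. The spread between heterozygous arrays therefore does not enter either p. The second E2f7 probe (chr10:110224331-110224390, plus strand, from base 5366 of the transcript) was not well above background in any mouse and was not tested. It read between 6.09 and 6.49 in heterozygous mice and between 6.19 and 6.44 in wildtype mice, with heterozygous replicates 1 and 2 at 6.09 and 6.35.

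Rb1, the retinoblastoma protein, was read by a probe with 10 spots per array (chr14:73595408-73595467, minus strand). Averaged over spots it gave 9.62, 9.33, 9.39 and 9.18 in heterozygous mice, against 9.64, 9.22, 9.06 and 8.87 in wildtype mice. The groups overlapped, and the difference was 0.18 (SE 0.26, adjusted p = 0.94, limma). The sign turned without the array of wildtype replicates 3 and 4, to −0.05.

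Rbl1 is the pocket protein most used by dividing cells. Its probe at chr2:156972143-156972202 (minus strand) was well above background in 3 heterozygous mice and 1 wildtype mouse. It read 7.25, 6.61, 6.96 and 6.96 in heterozygous mice, against 6.76, 6.98, 6.97 and 6.73 in wildtype mice. The groups overlapped, and the difference was 0.09 (SE 0.39, adjusted p = 0.985, limma). A second probe, for another transcript of the gene (chr2:157000761-157000820, minus strand), was not well above background in any mouse, at 6.26 to 6.68 in heterozygous and 6.03 to 6.43 in wildtype mice.

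Rbl2 is the pocket protein most used by non-dividing cells. Its probe (chr8:93647120-93647179, plus strand) read 8.65, 8.60, 9.06 and 9.39 in heterozygous mice, against 9.39, 10.04, 9.74 and 9.88 in wildtype mice. Heterozygous replicate 4 and wildtype replicate 1 lay at the same value, and the other heterozygous mice lay below every wildtype mouse. The difference was −0.83 (SE 0.36, unadjusted p = 0.0476, adjusted p = 0.62, limma), and −0.54 and −1.13 with heterozygous replicates 1 and 2, then 3 and 4, left out.

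Tfdp1 and Tfdp2 are the DP partners, and each was read by 2 tested probes. The Tfdp1 probes lie close together, at chr8:13377579-13377638 and chr8:13377791-13377850 on the plus strand. The first read 9.85, 9.92, 9.33 and 9.13 in heterozygous mice, against 9.74, 9.97, 9.67 and 9.54 in wildtype mice. The second read 9.57, 9.40, 9.38 and 9.49 in heterozygous mice, against 9.14, 9.34, 9.31 and 9.16 in wildtype mice. The groups overlapped on the first probe, and all heterozygous mice lay above all wildtype mice on the second. The differences had opposite signs, −0.17 (SE 0.32, adjusted p = 0.961) and 0.22 (SE 0.27, adjusted p = 0.929, limma). The heterozygous arrays differed by 0.65 on the first probe and by 0.05 on the second.

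The Tfdp2 probe farther along the transcript (chr9:96223955-96224014, plus strand) read 8.73, 8.19, 9.15 and 8.75 in heterozygous mice, against 8.97, 9.06, 9.32 and 9.38 in wildtype mice. The other (chr9:96219269-96219328, plus strand) read 8.61, 8.51, 9.13 and 8.27, against 8.82, 8.68, 9.07 and 8.77. The groups overlapped on both. The differences were −0.48 (SE 0.38, adjusted p = 0.847) and −0.21 (SE 0.38, adjusted p = 0.96, limma).

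The 2 arrays of one genotype were also compared. The array of heterozygous replicates 1 and 2 differed from that of replicates 3 and 4 at an adjusted p under 0.05 (limma) for 4 of 12 member probes, beside 33.5% of all probes. These were E2f7 at 2.76 (SE 0.10, adjusted p = 0.00028), E2f4 at −1.01 (adjusted p = 0.0275), Rbl2 at −0.60 (adjusted p = 0.0407) and the first Tfdp1 probe at 0.65 (adjusted p = 0.0146). The array of wildtype replicates 1 and 2 differed from that of replicates 3 and 4 for 2 of 12, beside 40.8% of all probes. These were E2f5 at 0.48 (adjusted p = 0.0264) and Rb1 at 0.47 (adjusted p = 0.0172). At least 2-fold apart were E2f4 and E2f7 between the heterozygous arrays, beside 6.84% of all probes, and 0 of 12 between the wildtype arrays, beside 10.4%. Leaving out single mice left the E2f7 call in place. It ended each of the others at least once, with adjusted p up to 0.16 for E2f4, 0.228 for Rbl2, 0.0917 for Tfdp1, 0.167 for E2f5 and 0.0972 for Rb1 (limma). The error of these tests is the spread between the 2 mice read from the same spot, which leaves out the spread between spots, so their counts are not comparable with those between genotypes. By size, the median member difference was 0.28 between genotypes, 0.27 between the heterozygous arrays and 0.21 between the wildtype arrays. Over all probes these were 0.25, 0.31 and 0.35. A genotype difference averages 2 arrays on each side, while an array difference sets 1 against 1. Their sizes are therefore not directly comparable either.

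**Figure D2:**
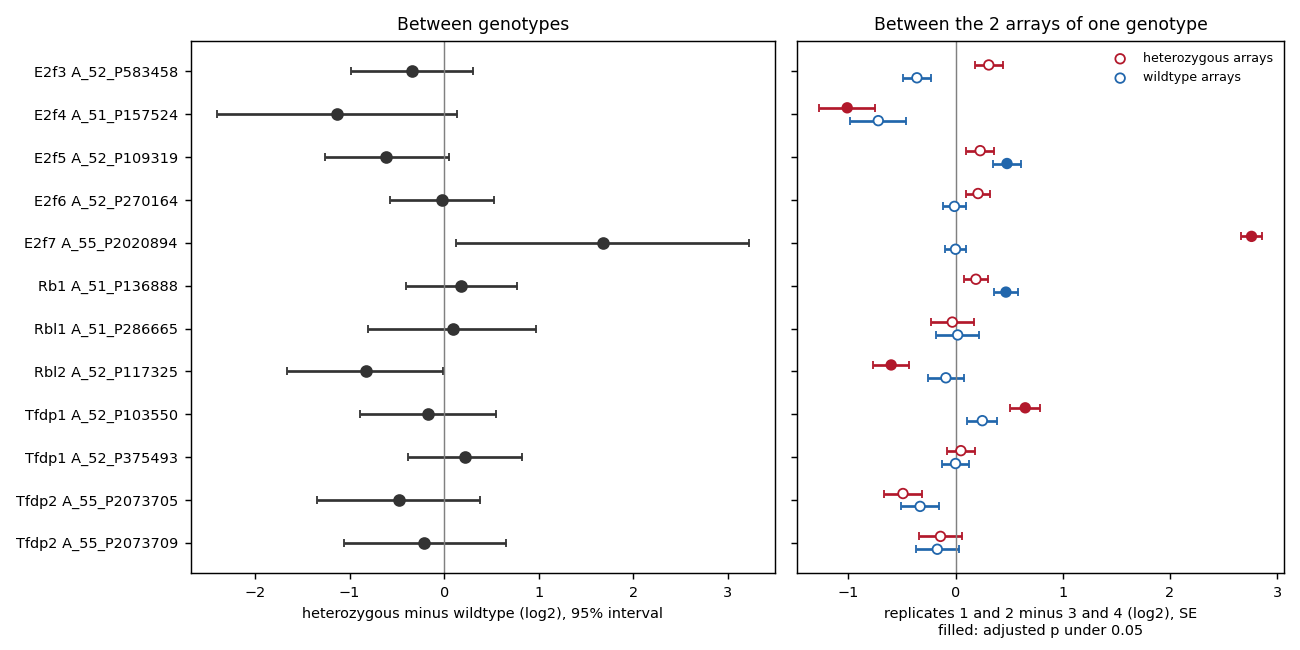
Left, the heterozygous minus wildtype difference (log2) of each tested probe with its 95% limma interval. Right, the difference between the 2 arrays of each genotype (log2, SE), filled where the adjusted p (limma) was under 0.05. The E2f7 value of 2.76 between the heterozygous arrays is larger than its genotype difference of 1.68, which averages 2 arrays of each genotype.

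The 10 Rb1 spots measured how far spots of the same sequence differ on one array. Averaged over the 2 mice, the Rb1 spots ran from 9.04 to 11.04 on the array of heterozygous replicates 1 and 2 and from 8.47 to 9.75 on that of heterozygous replicates 3 and 4. They ran from 8.85 to 10 on the array of wildtype replicates 1 and 2 and from 8.18 to 9.89 on that of wildtype replicates 3 and 4. With all readings included, the SD between Rb1 spots was 0.55, 0.41, 0.35 and 0.65 on these arrays. The spread between the 2 mice of an array was 0.16, 0.07, 0.05 and 0.11 over the same spots. It is the SD of their difference divided by the square root of 2.

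A Rb1 spot that was bright for one mouse of an array was thus bright for the other. The heterozygous minus wildtype difference ran from −0.73 to 1.69 over the 10 Rb1 spots, 5 higher and 5 lower, with a median of 0.07. The scanner software marked 5 of the 80 Rb1 readings as outliers, 4 of them on the array of heterozygous replicates 1 and 2, and these were left out of the averages. The brightest Rb1 reading, 11.03 and 11.04 for heterozygous replicates 1 and 2, was among the readings left out.

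Rb1 was not alone in this. Over 204 probes with 10 spots that were well above background, the median SD between spots was 0.40 and 0.38 on the heterozygous arrays, against 0.42 and 0.56 on the wildtype arrays. From that spread alone, a genotype difference of a probe with 1 spot per array would carry an error of 0.45. This spread includes outlier-flagged readings, which the tested values leave out, so 0.45 may be too large for tested probes. The median size of the genotype difference over all tested probes was 0.25. The differences of E2f3, E2f6, Rbl1, both Tfdp1 probes and the second Tfdp2 probe were smaller than 0.45.

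**Figure D3:**
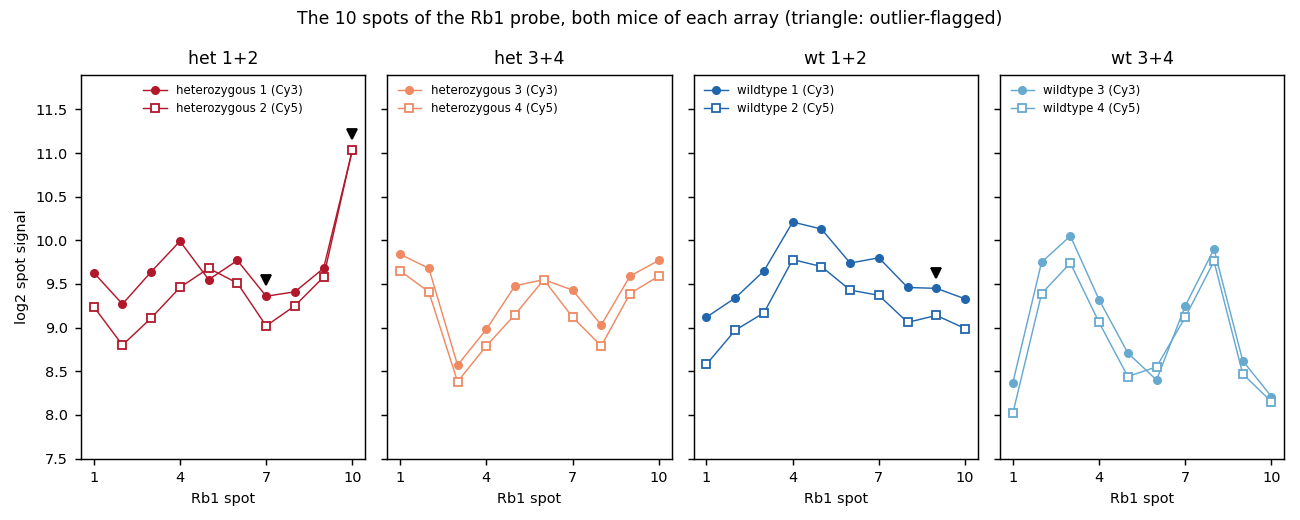
Log2 signal of each of the 10 Rb1 spots (x axis) for the Cy3 mouse (filled circles) and the Cy5 mouse (open squares) of each array. The lines of the 2 mice of an array follow each other, while the order of the spots differs between arrays, and the flagged spot 10 stands at 11.03 and 11.04 for heterozygous replicates 1 and 2.

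The E2f7 spot lay in a short run of bright spots on the array of heterozygous replicates 1 and 2. At the E2f7 spot, row 77 and column 84 of the array, the mean intensity was 3607 and 3770 for heterozygous replicates 1 and 2. It was 280.2 and 351.5 for heterozygous replicates 3 and 4 and 296.5 to 413.7 for wildtype mice. Rows 76 to 81 of that column, 6 spots in a line, were all over 2-fold brighter on that array than the median of the other 3 arrays.

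The probes of that run were chosen after their values were seen. Olfr1467, an olfactory receptor, had an array mean of 10.80 on the array of heterozygous replicates 1 and 2, against 5.97 on the other heterozygous array and 7.43 and 5.98 on the wildtype arrays. Next in the column came E2f7 at 11.47 against 8.72, 8.42 and 8.42, and Opn3, an opsin, at 12.12 against 8.36, 8.08 and 8.11. Then came a probe of Impdh2 at 12.36 against 10.94, 11.09 and 10.51, 4931407G18Rik at 12.03 against 5.98, 6.15 and 6.06, and Usp16, a deubiquitinase, at 11.54 against 10.18, 9.93 and 10.21. On that array the scanner software marked 2 of these 6 spots as outliers, those of Olfr1467 and 4931407G18Rik, and not the E2f7 spot.

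Bright spots lay beside other bright spots more often than beside other spots on all 4 arrays. On the array of heterozygous replicates 1 and 2, 2.15% of spots were over 2-fold brighter than the median of the other arrays. Among the 8 spots around such a spot 22% were bright as well, against 1.7% around other spots. On the other arrays these shares were 11.7% to 20.3% against 1.33% to 2.79%. The genes whose profile over the 8 mice was most like that of E2f7, by root-mean-square difference of centred log2 values, were BB557941 (0.24), Stil (0.31) and Stk10 (0.31). On the same array 5, 5 and 3 of their adjoining spots were over 2-fold brighter, as were 2 of the 8 around E2f7, whose median was 0.16. The array of wildtype replicates 1 and 2 also had 2 of 8 such spots around E2f7, with a median of 0.16. There the E2f7 spot itself stood at −0.30. Of all spots over 2-fold brighter on the array of heterozygous replicates 1 and 2, 27.7% had at least 3 such neighbours. BB557941 (row 528) and Stk10 (row 525) lay in column 47, next to the column of the flagged Rb1 spot at row 526 and column 46. Marker lists of 10 cell types stood between −0.69 (ependyma and choroid plexus) and 0.30 (striatal projection neurons) on that array, relative to their mean over the 4 arrays. The part of the bright runs and of the cell types in the E2f7 difference was not tested beyond these values.

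**Figure D4:**
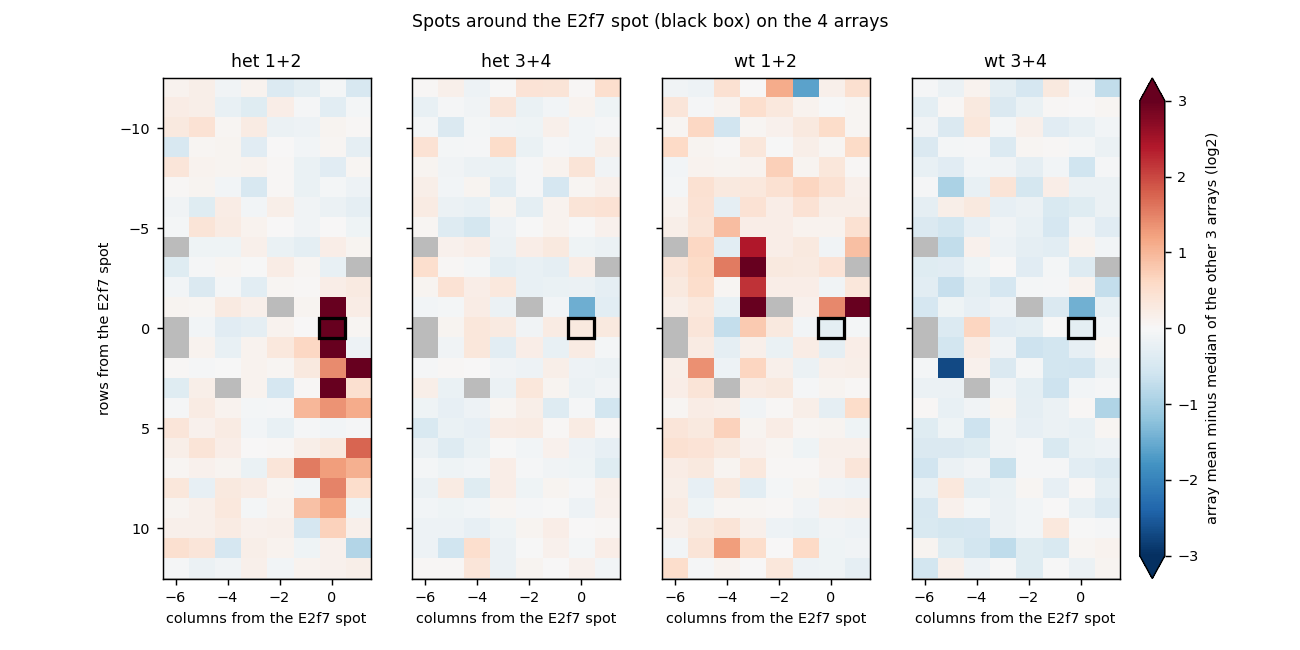
Array mean minus the median of the other 3 arrays (log2, colour) for the spots around the E2f7 spot, by rows and columns from it, on the heterozygous (left) and wildtype (right) arrays. The E2f7 spot, boxed, sits in a vertical run of 6 bright spots on the array of heterozygous replicates 1 and 2. Another bright run stands a few columns away on the array of wildtype replicates 1 and 2. On that wildtype array 2 of the 8 spots adjoining E2f7 were over 2-fold brighter as well, but the E2f7 spot was not. Grey marks positions without a probe value.

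The spots around E2f4 and Rbl2 also moved on single arrays. At the E2f4 spot, which was 1.27 below the median of the other arrays on the array of heterozygous replicates 1 and 2, 3 of 7 adjoining spots were over 2-fold dimmer there, with a median of −0.65. On the array of wildtype replicates 3 and 4 the E2f4 spot was 0.98 above the median of the others, with 2 of 7 adjoining spots over 2-fold brighter and a median of 0.34. The Rbl2 spot was 1.09 below on the array of heterozygous replicates 1 and 2, with 2 of 8 adjoining spots over 2-fold dimmer and a median of −0.74 around it. The E2f5 spot was 0.48 below on the array of heterozygous replicates 3 and 4, with 1 of 7 adjoining spots over 2-fold dimmer, and the medians around it lay between −0.08 and 0.13 on the 4 arrays. Over all spots, 1.64% to 2.36% were over 2-fold dimmer on the heterozygous arrays and 1.76% to 3.03% on the wildtype arrays. The part of the surrounding spots in these differences was not tested.

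None of the genes around the E2F and pocket proteins changed with genotype at an adjusted p under 0.05 (limma). Of 97 listed genes, each read by its brightest kept probe, 67 were tested, 27 higher and 40 lower. At an unadjusted p under 0.05, 3 were higher and 4 lower, beside 3.69% and 4.43% (8.13% in either direction) of all 15063 genes tested this way. Their median difference was −0.09, against −0.03 for all genes. The groups did not overlap for 17% of all probes, 7.86% higher and 9.1% lower. Among the genes named below this held for Rnf2, Mcm4 and Smarca4 (higher). It also held for E2f2, Mga, Chaf1a, Dnmt1, Ccnb2 and Rbbp5 (lower). The named genes were picked for a low p, which favours groups without overlap. Their share is therefore not comparable with that of all probes. Of the tested list genes not named below, only Rbbp8 (lower) had groups without overlap. In bulk tissue, fewer cells of a type and less RNA per cell cannot be told apart.

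The other E2F genes tested, E2f1 and E2f2, activators like E2f3, stood at −0.77 and −0.63. E2f1 read 7.45, 7.63, 9.05 and 9.58 in heterozygous mice, against 9.68, 9.17, 8.93 and 9.02 in wildtype mice, so the low values were those of 1 heterozygous array. E2f2 read 6.91, 6.60, 6.99 and 7.11 in heterozygous mice, against 7.41, 7.35, 7.31 and 8.07 in wildtype mice, without overlap. With heterozygous replicates 1 and 2 left out, E2f1 stood at 0.11 and E2f2 at −0.48. Neither passed the test, with adjusted p of at least 0.823 (limma).

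Upstream of the pocket proteins, 10 of 17 cyclins, cyclin-dependent kinases and their inhibitors were tested, 3 higher and 7 lower with a median of −0.08. The inhibitors Cdkn2d and Cdkn1a stood at −0.56 and −0.45, and the cyclin Ccna2 at 0.30. Of the MuvB core, which joins Rbl2 and E2f4 in the repressing DREAM complex, and its Myb and Foxm1 partners, 5 of 8 were tested, 1 higher and 4 lower with a median of −0.16. The lowest was the histone-binding Rbbp4 at −0.97, with 11.10, 10.98, 12.47 and 12.44 in heterozygous mice, against 13.16, 12.35, 12.56 and 12.79 in wildtype mice.

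Of the E2f6 repressor complex, 9 of 12 genes were tested, 5 higher and 4 lower with a median of 0.09. Its scaffold Mga stood at −0.71 (unadjusted p = 0.032, adjusted p = 0.581, limma) and its ubiquitin ligase Rnf2 at 0.74 (unadjusted p = 0.0402, adjusted p = 0.605). Mga read 8.73, 8.91, 8.48 and 8.27 in heterozygous mice, against 9.24, 9.29, 9.41 and 9.30 in wildtype mice. Rnf2 read 10.19, 10.18, 9.75 and 9.98 in heterozygous mice, against 9.59, 9.64, 9.05 and 8.87 in wildtype mice. The groups did not overlap for either gene.

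Downstream, 23 of 30 E2F target genes of DNA replication were tested, 8 higher and 15 lower with a median of −0.09. The chromatin assembly factor Chaf1a stood at −0.67 (adjusted p = 0.509, limma), the maintenance methyltransferase Dnmt1 at −0.76 (adjusted p = 0.611) and the helicase subunit Mcm4 at 0.93 (adjusted p = 0.62). Mcm4 read 9.92, 9.80, 9.97 and 10.03 in heterozygous mice, against 9.61, 9.76, 8.39 and 8.24 in wildtype mice, and its difference was 0.24 with wildtype replicates 3 and 4 left out. Of 14 mitotic target genes 6 were tested, 2 higher and 4 lower with a median of −0.22. None of the 6 was well above background in every mouse. Without the filter on dim probes the median over 14 mitotic genes was −0.07. Ccnb2 stood at −0.46, Birc5 at −0.35 and Plk1 at 0.25.

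Of 13 genes listed for pocket protein binding, most but not all of them for chromatin proteins, 12 were tested. Of these 8 were higher and 4 lower, with a median of 0.12. Smarca4, the chromatin remodelling ATPase known to act with Rb1, had the lowest p of all listed genes, at 1.06 (SE 0.34, unadjusted p = 0.012, adjusted p = 0.493, limma). It read 12.92, 12.91, 13.53 and 13.51 in heterozygous mice, against 11.77, 11.63, 12.68 and 12.57 in wildtype mice. The groups did not overlap, and the arrays of one genotype differed by 0.60 and 0.92 in size. Rbbp5, a subunit of histone methyltransferase complexes, stood at −0.61, and Rb1cc1, better known for its part in autophagy, at 0.69.

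**Figure D5:**
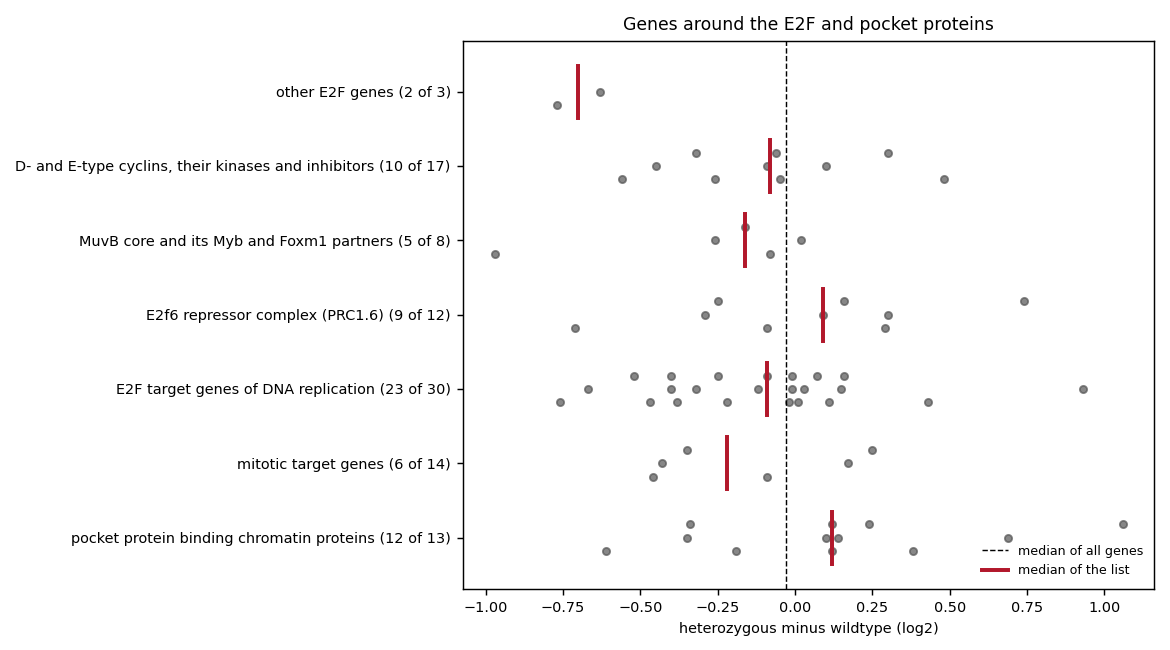
Heterozygous minus wildtype difference (log2, x axis) of each tested gene (points, spread vertically for sight only) in the 7 lists, with the number tested of those listed. List medians (red) lie between −0.22 and 0.12 apart from that of the other E2F genes, −0.70 from 2 genes, and the dashed line is the median of all genes, −0.03.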

How the data were processed

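Striatal RNA of 8 mice was read on 4 two-colour Agilent arrays, with each mouse's own channel as its value. The members and lists were chosen with earlier results of these data known. Per the file headers, the deposited files hold the intensity of spots and local background from Agilent Feature Extraction 11.0.1.1, with a processed intensity beside it. The authors' deposited table of values gives a ratio, the median signal minus background over the column's median. It was matched to the scanner values within a relative tolerance of 0.001, each column's median is 1, and it was an alternative only.

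Log2 values were computed from the deposited intensities with limma 3.58.1 in R 4.3.3: normexp with an offset of 50, loess within arrays, Aquantile between arrays, outlier-flagged spots left out and spots of a probe averaged. Of 39429 probes, 22288 were well above background in at least 4 of 8 mice, and 3889 of these were left out for outlier spots in some mouse. A probe needed a value in every mouse. Genotypes were compared with a term for dye and a random effect of array. Arrays of one genotype were compared with the arrays as fixed groups. Named genes outside the set are up to 3 of each list with the lowest p, the 3 most like the widest-ranging and lowest-p member probe (E2f7 for both) and Brd2, beside the probes of the bright run around E2f7, chosen after their values were seen. For 27234 probes a RefSeq name was matched by accession. The alternatives were other signals, normalizations, filters and error models, the value table, a removed spatial trend, and single mice or arrays left out.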

Additional observations from a re-analysis of the deposited data

Results flagged for a closer look

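The second Rbl1 probe, for another transcript of the gene, read 6.68 in heterozygous replicate 1, while the other 3 heterozygous mice lay between 6.26 and 6.29. The gap of that mouse to the nearest other was 0.931 of the group's range, past Dixon's limit for 4 values. The probe was not well above background in any mouse. This was 1 of 30 groups of 4 mice examined, and chance flags about 1 in 20.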

How the results depend on the processing

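No member probe passed the genotype test under the alternatives, with 1 exception. This was E2f7 at 3.05 (adjusted p = 0.0448, limma) with heterozygous replicates 3 and 4 both left out. Any fit without an array leaves 1 array in that genotype, so the spread between its arrays does not enter the p. The sign of E2f6 turned, to 0.24 with the scanner's processed signal and 0.12 with the spatial trend removed. E2f6 stood at −0.08 to 0.03 when 1 mouse was left out, and at 0.09 with heterozygous replicates 3 and 4 both left out. The first Tfdp1 probe turned to 0.16 with heterozygous replicates 3 and 4 both left out. Rbl1 turned to −0.06 and −0.03 without heterozygous or wildtype replicate 1. Rb1 turned to −0.05 without the array of wildtype replicates 3 and 4. The second Tfdp1 and second Tfdp2 probes turned to −0.04 and 0.14 with the processed signal. E2f3, E2f4, E2f5, E2f7, Rbl2 and the first Tfdp2 probe kept their sign under every alternative run; E2f7 ranged from 0.30 to 3.05.

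Over all probes, 0 passed in the genotype test, against 539 without the array block, 1 with the deposited value table, 5, 23 and 14 when an array was left out (heterozygous replicates 3 and 4, wildtype replicates 1 and 2, and wildtype replicates 3 and 4), and 0 to 1 when 1 mouse was left out. In the pathway lists 1 gene passed without the array block. List medians turned for the E2f6 complex (−0.13 with outlier spots kept, −0.09 to 0.19 when 1 mouse was left out). With the processed signal they turned for the replication targets (0.04) and the pocket protein binding list (−0.03). The median of the cyclins turned to 0.04 without the array of wildtype replicates 3 and 4. Replicate numbers did not pair the mice (correlations of same-numbered mice −0.0426, 0.182, 0.0798 and 0.0554), and with a replicate block 0 probes and 0 member probes passed. Between arrays, leaving out 1 mouse gave 2500 to 6017 probes for the heterozygous arrays, against 6164 with all mice, and 3601 to 6872 for the wildtype arrays, against 7505. The array calls of E2f4, Rbl2, the first Tfdp1 probe, E2f5 and Rb1 were each lost under at least 1 alternative, and that of E2f7 was not. The cause was not tested, beyond the fewer mice or arrays that some settings use. The single spot of most probes and the 2 arrays per genotype limit what could be detected.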
